A study of Mus musculus with 10 samples.

Results

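The genes of the major histocompatibility complex (MHC) and of antigen presentation were followed in CD8 T cells sorted from tumours. The set held every protein-coding gene of the GENCODE M21 annotation whose symbol begins with H2-, the name of the MHC in the mouse, together with B2m, Tap1, Tap2, Tapbp, Cd74 and Ciita. This gave 40 of 54337 genes, of which 28 belong to class I, 11 to class II and 1, H2-Ke6, encodes a steroid dehydrogenase and no MHC protein. Class I molecules are made by nearly all nucleated cells and show peptides from inside the cell to CD8 T cells. Each consists of a heavy chain and beta-2 microglobulin, the product of B2m, and is loaded with peptides that the Tap1 and Tap2 transporter brings into the endoplasmic reticulum, with tapasin (Tapbp) holding the complex together. Class II molecules pair an alpha with a beta chain, are guided by the invariant chain Cd74, are made mainly by dendritic cells, macrophages and B cells under the control of Ciita, and show peptides to CD4 T cells. Mouse T cells are known for abundant class I and for little class II of their own.

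The T cells carried a transgenic receptor for P1A, an antigen of the mastocytoma P511, and the strain is given as C57BL/6 in the labels. They were activated for 24 h, transduced with a retrovirus, transferred into tumour-bearing Rag1-/- B10D2 mice and recovered from the tumours 7 days after transfer. The virus coded for eGFP alone (eGFP control, libraries 3, 6 and 7), for NFAT5, a transcription factor of the osmotic stress response (libraries 1, 5 and 8), or for CA-RIT NFAT1, an NFAT1 that is constantly active and cannot pair with AP-1 (libraries 2, 4, 9 and 10). Rag1-/- hosts lack T and B cells of their own and keep macrophages, dendritic cells and other myeloid cells. The sources used here do not give the age and number of the mice or the promoter of the vectors. Whether each library is a mouse of its own is not stated, and p-values therefore cover the spread between these samples, which may be technical. B10D2 mice carry another MHC haplotype than C57BL/6, the strain of the annotation, and class I genes are close copies of each other. Reads of H2 genes were therefore assigned to sequences that may not be those of the cells, and the split between class I genes is uncertain.

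Of the 10 libraries, 9 held 18.8 to 36.6 M estimated reads and eGFP control 7 held 51112. CA-RIT NFAT1 10 had a summed level of 10 T cell markers of 308 CPM (reads of a gene scaled to a fixed total of reads on matched genes), against 27148 to 41866 CPM in the 8 libraries other than these 2, so the label of sorted CD8 T cells is not borne out by the markers in that library. Genes at 0 reads were counted among those with a mean of at least 5 CPM and reads in all of the libraries compared. For eGFP control 3 and CA-RIT NFAT1 10, the libraries compared were the 7 of those 8 other than eGFP control 3. eGFP control 3 had 0 reads for 487 of 9278 such genes (5.25%), and CA-RIT NFAT1 10 for 1081 of 9278 (11.65%). Each of the 7, compared with the rest of them, had 0 reads for at most 8 such genes. The comparisons below use the 8 libraries, with eGFP control 7 and CA-RIT NFAT1 10 shown beside them, and results that rest on eGFP control 3 are given with and without it.

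The promoters of the members hold short elements by which they are known to be controlled, and windows of 200 bases upstream of the start are shown for the heavy chains H2-K1 and H2-D1, for B2m and for the class II chains H2-Aa and H2-Eb1, since these genes carry the levels described below. The sequences are those of RefSeq on GRCm38.p6, read on the gene's strand from 5′ to 3′. The positions are chr17:34000348-34000547 (minus strand) for H2-K1, chr17:35262894-35263093 (plus) for H2-D1, chr2:122147487-122147686 (plus) for B2m, chr17:34287824-34288023 (minus) for H2-Aa and chr17:34305667-34305866 (plus) for H2-Eb1. Capitals mark matches of the Y box ATTGG on either strand, of the interferon regulatory factor element AAANNGAAA on either strand and of GGGATTCCC, a site of NF-kappaB in the enhancer of H2-K1.
H2-K1: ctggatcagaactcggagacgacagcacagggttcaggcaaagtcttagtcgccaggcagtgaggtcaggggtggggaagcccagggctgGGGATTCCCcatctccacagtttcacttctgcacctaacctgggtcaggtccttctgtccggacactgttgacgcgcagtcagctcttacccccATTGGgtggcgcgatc
H2-D1: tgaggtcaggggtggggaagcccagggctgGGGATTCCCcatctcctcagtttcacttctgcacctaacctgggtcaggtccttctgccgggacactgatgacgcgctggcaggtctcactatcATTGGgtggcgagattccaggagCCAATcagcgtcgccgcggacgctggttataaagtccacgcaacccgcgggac
B2m: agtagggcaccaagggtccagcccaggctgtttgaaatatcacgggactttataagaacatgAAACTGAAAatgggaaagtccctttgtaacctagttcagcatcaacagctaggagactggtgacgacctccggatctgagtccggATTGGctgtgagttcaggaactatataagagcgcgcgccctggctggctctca
H2-Aa: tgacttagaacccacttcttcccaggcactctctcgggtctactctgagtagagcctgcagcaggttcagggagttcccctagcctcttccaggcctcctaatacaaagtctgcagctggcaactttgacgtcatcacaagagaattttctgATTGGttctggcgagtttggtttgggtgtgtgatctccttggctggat
H2-Eb1: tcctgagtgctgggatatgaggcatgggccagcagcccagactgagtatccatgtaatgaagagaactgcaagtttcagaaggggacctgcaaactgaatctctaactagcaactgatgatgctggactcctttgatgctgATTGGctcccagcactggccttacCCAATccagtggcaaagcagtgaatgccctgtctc
A window, from 250 bases before to 50 after the start, was found for 34 of 40 members. GGGATTCCC occurred in 4 of 25 class I members with a window (H2-K1, H2-D1, H2-Q6 and H2-Q7), in 0 of 8 class II members and in 116 of 32851 windows of all genes (0.353%). The Y box occurred in 22 of 25 class I and 8 of 8 class II members and in 37.4% of all windows. The interferon element occurred in 5 of 25 and 2 of 8 members and in 10.5% of all windows. These are matches of letters and say nothing about binding in these cells.

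Class I transcripts were abundant in every library with T cell transcripts. Their summed level was 28222 and 23982 CPM in eGFP control 3 and 6, 21551, 20636 and 18816 CPM in NFAT5 1, 5 and 8, and 25760, 20784 and 18988 CPM in CA-RIT NFAT1 2, 4 and 9. Group means (± SD) were 26102 ± 2998 CPM for the 2 controls, 20334 ± 1392 CPM for the 3 NFAT5 libraries and 21844 ± 3508 CPM for the 3 CA-RIT NFAT1 libraries. The libraries of NFAT5 lay below both controls, and those of CA-RIT NFAT1 overlapped them. The summed level of the 10 T cell markers showed the same pattern. It was 41866 and 33671 CPM in the controls, 27148 to 28659 CPM with NFAT5 and 28673 to 34169 CPM with CA-RIT NFAT1. Per transcript length, as summed TPM (the same scaling after division by transcript length), the controls lay at 20749 and 21063, the NFAT5 libraries at 20225, 17342 and 15511 and the CA-RIT NFAT1 libraries at 23494, 18887 and 16340. Class I took 1.88% to 2.82% of the reads of the 8 libraries.

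Class II transcripts were scarce, at 0.0147% to 0.0251% of reads in 7 of the 8 libraries, and stood apart in single libraries. Their summed level was 1482 CPM in eGFP control 3 and 205.8 CPM in eGFP control 6, and it was 251, 179.7 and 198 CPM in NFAT5 1, 5 and 8. CA-RIT NFAT1 2, 4 and 9 had 208, 147 and 189 CPM, and CA-RIT NFAT1 10 had 5541 CPM. Apart from eGFP control 3, the libraries of the 8 lay within 147 to 251 CPM and the 3 groups overlapped. Over the median of the other 7, class II was 7.49-fold higher in eGFP control 3 and 28.0-fold higher in CA-RIT NFAT1 10, while class I was 1.36-fold in the first and 0.385-fold in the second. In RNA of whole samples, fewer cells of a type and less RNA per cell cannot be told apart.

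**Figure D1:**
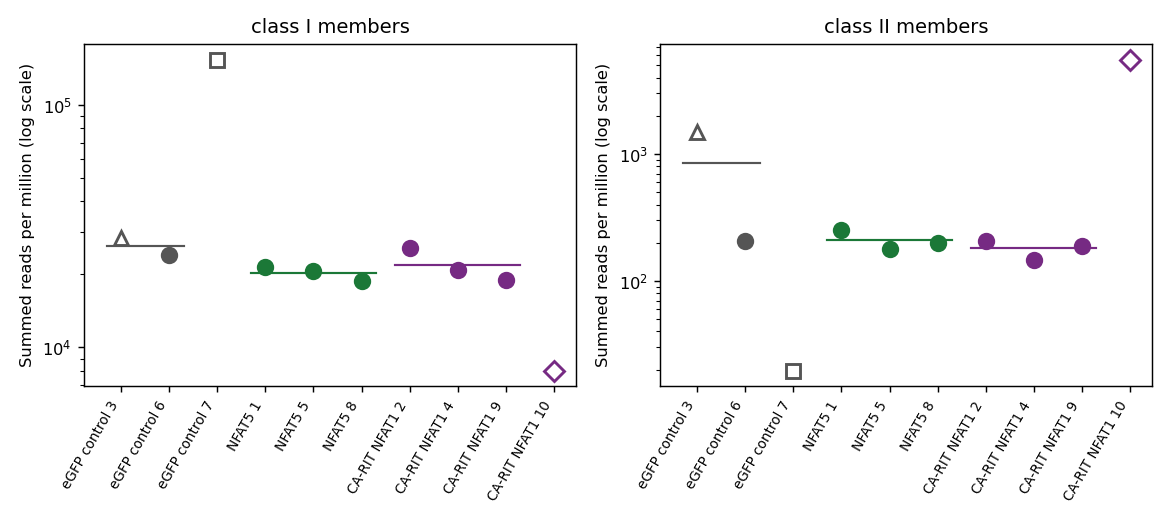
Summed CPM of the class I members (left) and class II members (right) in each of the 10 libraries, on log axes; points are libraries, coloured by vector, and horizontal lines are the means of the 2 control, 3 NFAT5 and 3 CA-RIT NFAT1 libraries of the fit. Class II stands at 1482 CPM in eGFP control 3 and 5541 CPM in CA-RIT NFAT1 10, and between 147 and 251 CPM in the other libraries of the fit.

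The classical heavy chains H2-K1 and H2-D1 were the most abundant H2 genes. H2-K1 (ENSMUSG00000061232, GRCm38, chromosome 17, 33996017 to 34000347, minus strand) lay at 5087 and 3903 CPM with eGFP, 3409, 3167 and 2993 CPM with NFAT5 and 4356, 3404 and 2929 CPM with CA-RIT NFAT1, in the order of the library numbers given above. All 3 NFAT5 libraries were below both controls, and CA-RIT NFAT1 2 lay between the controls. Its mean (± SD) was 4495 ± 837 CPM for the 2 controls, 3190 ± 209 CPM for NFAT5 (n = 3) and 3563 ± 727 CPM for CA-RIT NFAT1 (n = 3). H2-D1 (ENSMUSG00000073411, chromosome 17, 35262730 to 35267499, plus strand) had the same order of groups, at 12036 and 9925 CPM with eGFP, 8665, 8479 and 7527 CPM with NFAT5 and 11003, 8567 and 7666 CPM with CA-RIT NFAT1. It took 40.0% to 42.7% of class I reads in the 8 libraries. In TPM, which allow genes to be compared, H2-D1 had a median of 5407 over the 8 libraries (4246 to 6574), H2-K1 5309 (4105 to 6668) and B2m 4911 (4078 to 5703). These 3 ranges overlapped almost wholly, and within a library the ratio of H2-D1 to H2-K1 stayed between 0.980 and 1.09.

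B2m (chromosome 2, 122147686 to 122153083, plus strand), which every class I molecule needs at the surface, lay at 4046 and 3628 CPM with eGFP, 3218, 3526 and 3047 CPM with NFAT5 and 3548.5, 3012 and 3326.5 CPM with CA-RIT NFAT1. In CPM both controls were above all 6 libraries with a transcription factor. In TPM, CA-RIT NFAT1 2 (5703) lay above both controls (5088 and 5348). The ratio of B2m to H2-K1 in TPM was 0.855 to 1.09 in the 8 libraries. The transporter genes ranked the libraries differently. Tap1 had 438 and 581.5 CPM with eGFP, 665, 563 and 578 CPM with NFAT5 and 681.5, 583 and 500.2 CPM with CA-RIT NFAT1, and Tap2 had 395 and 713 CPM with eGFP, 682, 608 and 499 CPM with NFAT5 and 671.5, 595 and 541 CPM with CA-RIT NFAT1. For both the lowest of the 8 libraries was eGFP control 3, and the groups overlapped. Tapbp had 698 and 844.5 CPM with eGFP, 1040, 659 and 677.5 CPM with NFAT5 and 892, 800.5 and 647 CPM with CA-RIT NFAT1, again with overlap.

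The remaining class I members are nonclassical heavy chains. H2-Q7, which encodes the Qa-2 antigen, had 1549.5 and 1102 CPM with eGFP, 945, 966 and 956 CPM with NFAT5 and 1121.5, 998 and 878 CPM with CA-RIT NFAT1, and H2-Q6, a close copy of it, had 821 and 791.5 CPM with eGFP, 722, 749 and 730.0 CPM with NFAT5 and 834, 773 and 681 CPM with CA-RIT NFAT1. H2-Q4 had 949 and 876 CPM with eGFP, 791, 688 and 647 CPM with NFAT5 and 958.5, 743.5 and 642.5 CPM with CA-RIT NFAT1. In these 3 genes the NFAT5 libraries lay below both controls in CPM, and the CA-RIT NFAT1 libraries did not. In TPM, NFAT5 1 lay between the controls for H2-Q6 and H2-Q4. H2-T23, which encodes Qa-1, the ligand of the inhibitory receptor NKG2A, had 890.3 and 673 CPM with eGFP, 597.5, 464 and 435 CPM with NFAT5 and 684, 487 and 427 CPM with CA-RIT NFAT1. H2-T22, a ligand of some gamma delta T cell receptors, had 237 and 198 CPM with eGFP, 182, 151 and 179.6 CPM with NFAT5 and 238, 163 and 156 CPM with CA-RIT NFAT1. Both showed the NFAT5 libraries below the controls with CA-RIT NFAT1 2 at or above one of them. H2-Q1 had 366 and 227 CPM with eGFP, 195, 179.8 and 171 CPM with NFAT5 and 251, 201 and 189 CPM with CA-RIT NFAT1, and H2-Q2 had 278.5 and 211 CPM with eGFP, 186, 175 and 152 CPM with NFAT5 and 246, 186 and 164 CPM with CA-RIT NFAT1. Of H2-Q10, a secreted class I protein best known from liver, the levels were 212 and 204 CPM with eGFP, 134, 155 and 151 CPM with NFAT5 and 127, 165 and 150.0 CPM with CA-RIT NFAT1. All 6 libraries with a transcription factor lay below both controls for H2-Q10 in CPM. In TPM, eGFP control 3 (75.7) lay below NFAT5 5 and 8 (83.2 and 79.0) and CA-RIT NFAT1 4 and 9 (94.2 and 78.3). H2-M3, which presents formylated bacterial peptides, had 141.5 and 85.6 CPM with eGFP, 73.2, 86.8 and 53.4 CPM with NFAT5 and 107, 75.6 and 67 CPM with CA-RIT NFAT1, and its groups overlapped. H2-T24 had 13.1 and 18.7 CPM with eGFP, 44.9, 17.1 and 19.8 CPM with NFAT5 and 41.6, 29.5 and 21 CPM with CA-RIT NFAT1. Its lowest level among these libraries was in eGFP control 3, and the CA-RIT NFAT1 libraries lay above both controls.

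H2-M2 stood out in 1 library. It lay at 58.1 CPM in eGFP control 3, at 1.82 CPM in NFAT5 1 and 1.28 CPM in CA-RIT NFAT1 9, and it had 0 reads in the remaining 5 of the 8, where 3 reads equal 0.101 to 0.160 CPM. H2-T3, the thymus leukaemia antigen, had 5.83 CPM in eGFP control 3 and at most 0.931 CPM in the other 7. The other 10 class I members, all of the H2-M series (H2-M1, H2-M5, H2-M9, H2-M11 and the H2-M10 genes), had 0 reads in all 10 libraries. Ranked by TPM, H2-Q7 (median 737 over the 8 libraries), H2-Q6 (631), Tapbp (478), H2-Q4 (446) and H2-T23 (405) followed the 3 most abundant genes, then Tap2 (261), Tap1 (246), H2-Q2 (191), H2-Q1 (114), H2-T22 (107), H2-Q10 (78.7), H2-M3 (51.7) and H2-T24 (8.09). Neighbours in this order overlapped over the 8 libraries except H2-Q7 against B2m and H2-T24 against H2-M3.

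**Figure D2:**
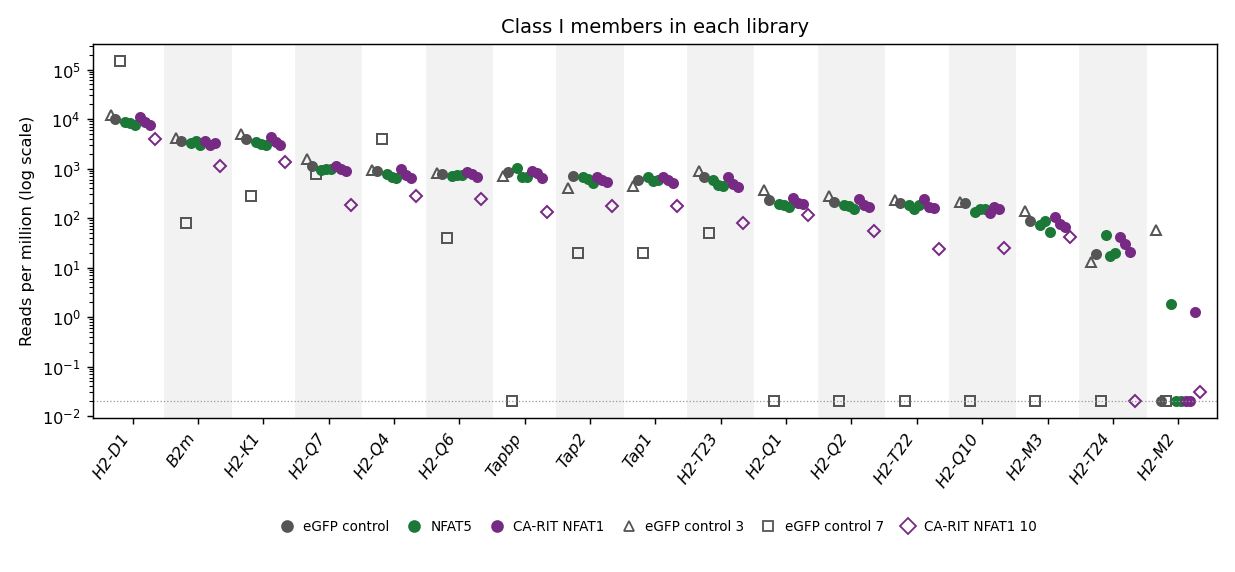
CPM (log axis) of the 17 class I members with a mean of at least 5 CPM over the 8 libraries, ordered by their median; each point is a library, coloured by vector, with open symbols for eGFP control 3, eGFP control 7 and CA-RIT NFAT1 10, and values of 0 drawn on the dotted line. H2-D1 reaches 148648 CPM in eGFP control 7, H2-M2 stands apart in eGFP control 3 at 58.1 CPM, and most genes are lowest of the large libraries in CA-RIT NFAT1 10.

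Among class II genes the chains of the A and E molecules were low in 7 of the 8 libraries. H2-Ab1 (ENSMUSG00000073421, chromosome 17, 34257689 to 34269419, plus strand), the beta chain of the A molecule, had 454 and 90.3 CPM with eGFP, 78.5, 60 and 65 CPM with NFAT5 and 67, 46 and 45.5 CPM with CA-RIT NFAT1. H2-Aa (chromosome 17, 34282744 to 34287823, minus strand), its alpha chain, had 190.0 and 7.12 CPM with eGFP, 13.6, 7.52 and 6.73 CPM with NFAT5 and 9.36, 7.33 and 5.85 CPM with CA-RIT NFAT1. H2-Eb1, the beta chain of the E molecule, had 151 and 8.18 CPM with eGFP, 15.5, 10.3 and 11.3 CPM with NFAT5 and 8.85, 6.22 and 4.65 CPM with CA-RIT NFAT1. In each of the 3 genes eGFP control 3 was far above the rest, by 6.98-fold for H2-Ab1, 25.9-fold for H2-Aa and 17.1-fold for H2-Eb1 over the median of the other 7. For H2-Aa and H2-Eb1, eGFP control 6 lay within the range of the NFAT5 and CA-RIT NFAT1 libraries, whereas for H2-Ab1 it lay above all 6. The chains also stood in another proportion. The TPM of H2-Aa was 0.416 of that of H2-Ab1 in eGFP control 3 and 0.596 in CA-RIT NFAT1 10, against 0.0773 to 0.176 in the other 7.

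Cd74, the invariant chain, had 565 and 52.9 CPM with eGFP, 90.5, 57.2 and 78 CPM with NFAT5 and 66.3, 54.7 and 90.6 CPM with CA-RIT NFAT1. It was 8.51-fold higher in eGFP control 3 than the median of the other 7 (52.9 to 90.6 CPM), among which the groups overlapped. H2-DMa, the alpha chain of the molecule that exchanges peptides on class II, had 78.8 and 35.7 CPM with eGFP, 37.9, 32.8 and 24.3 CPM with NFAT5 and 46.8, 25.2 and 34.5 CPM with CA-RIT NFAT1. Its partner chains were scarce. H2-DMb1 had 4.62 and 0.0809 CPM with eGFP, 0.645, 0.64 and 1.21 CPM with NFAT5 and 1.19, 0.567 and 0.141 CPM with CA-RIT NFAT1, and H2-DMb2 had 9.46 and 0 CPM with eGFP, 1.45, 0.479 and 1.11 CPM with NFAT5 and 1.04, 0.193 and 0.745 CPM with CA-RIT NFAT1. Thus the alpha chain of DM was present in all 8 libraries and the beta chains at 4.62 CPM or more only in eGFP control 3 among them. H2-Oa, the alpha chain of DO, which restrains DM and is typical of B cells and thymus, had 28.9 and 11.5 CPM with eGFP, 10.8, 10.5 and 8.97 CPM with NFAT5 and 6.81, 7.1 and 6.72 CPM with CA-RIT NFAT1. Its partner H2-Ob had reads in CA-RIT NFAT1 2 alone (0.505 CPM), and H2-Eb2 had 0 reads in all 10 libraries. In TPM the order was Cd74 (median 68.1 over the 8 libraries), H2-Ab1 (66.9), H2-DMa (38.6), H2-Eb1 (10.8), H2-Oa (10.3) and H2-Aa (7.69), and each overlapped with the next over the 8 libraries. Without eGFP control 3, H2-DMa (24.8 to 55.6) no longer overlapped with H2-Eb1 (6.08 to 19.6).

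Ciita (ENSMUSG00000022504, chromosome 16, 10480059 to 10528418, plus strand), the coactivator that switches class II genes on, had read counts that did not follow theirs. It had 45, 4 and 23 reads in NFAT5 1, 5 and 8 (1.81, 0.213 and 1.00 CPM), 14 reads in CA-RIT NFAT1 9 (0.496 CPM), and 0 in CA-RIT NFAT1 2 and 4. It also had 0 reads in eGFP control 3, where 3 reads equal 0.0822 CPM, in eGFP control 6 (0.121 CPM) and in CA-RIT NFAT1 10 (0.0923 CPM). The 2 libraries with the most class II reads were without a read of Ciita. They also had 0 reads for 5.25% (eGFP control 3) and 11.65% (CA-RIT NFAT1 10) of the genes compared above. Those genes had a mean of at least 5 CPM, and Ciita did not exceed 1.815 CPM in any library. Its counts of 0 therefore cannot show that it was absent.

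**Figure D3:**
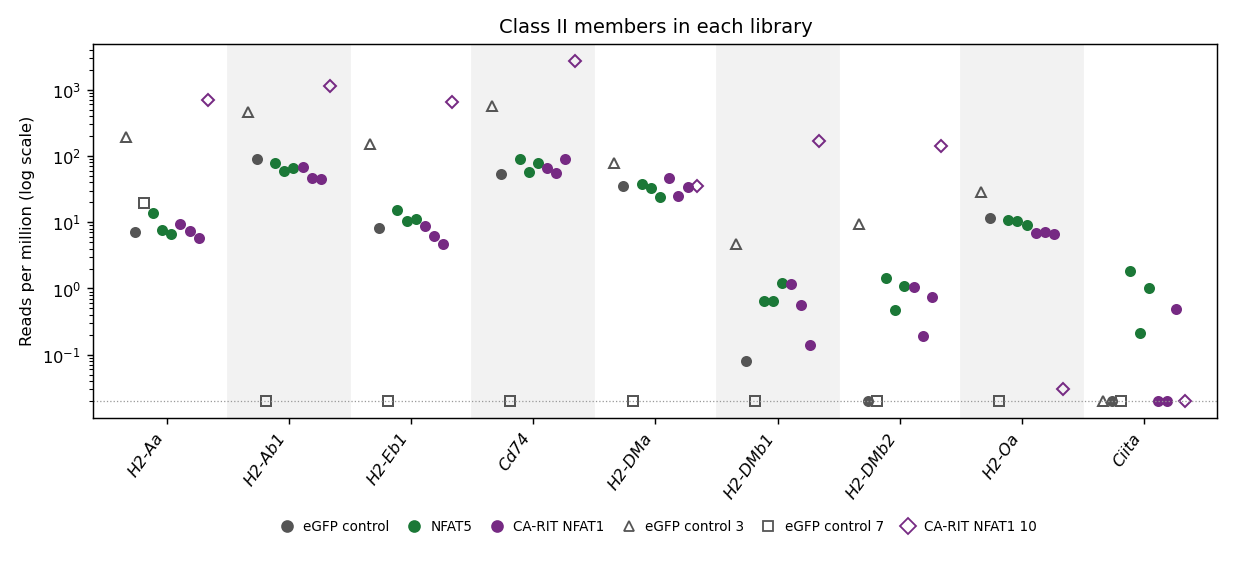
CPM (log axis) of 9 class II members; each point is a library, coloured by vector, with open symbols for eGFP control 3, eGFP control 7 and CA-RIT NFAT1 10, and values of 0 drawn on the dotted line. Open triangles (eGFP control 3) and open diamonds (CA-RIT NFAT1 10) lie above the filled points for H2-Aa, H2-Ab1, H2-Eb1, Cd74, H2-DMb1 and H2-DMb2, while CA-RIT NFAT1 10 is at 34.8 CPM for H2-DMa and 0.0308 CPM for H2-Oa.

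The first comparison asks what additional NFAT5 changed. With edgeR over the 8 libraries, 0 of 14473 genes (0%) passed an adjusted p of 0.05 for NFAT5 against eGFP, and so did 0 of the 28 members tested, although 1051 genes (7.26%) had an unadjusted p below 0.05. The 12 members not tested had too few reads. Of the 18 class I members tested 15 were on the lower side of 0 with NFAT5 (median log2 fold change -0.56), against 45.8% of all genes (median 0.08), and 8 had an unadjusted p below 0.05, all lower. In 12 of the 18 the NFAT5 libraries lay below both controls without overlap in CPM, which held for 8.15% of all genes. These were H2-K1, H2-D1, H2-Q1, H2-Q2, H2-Q4, H2-Q6, H2-Q7, H2-Q10, H2-T3, H2-T22, H2-T23 and B2m, of which the H2 genes are similar copies that can share reads and so are not separate pieces of evidence. In TPM, H2-Q4, H2-Q6 and H2-Q10 overlapped with the controls, whereas H2-M3 did not. The log2 fold change was -0.61 ± 0.23 (SE) for H2-K1, -0.53 ± 0.22 for H2-D1 and -0.34 ± 0.19 for B2m. It was -0.83 ± 0.26 for H2-Q1, -0.59 ± 0.22 for H2-Q7, -0.61 ± 0.21 for H2-Q10, -0.77 ± 0.26 for H2-T23 and -0.80 ± 0.33 for H2-M3. The smallest adjusted p of a member was 0.654 (edgeR). The loading genes were close to 0, with 0.14 ± 0.20 for Tap1, 0.01 ± 0.26 for Tap2 and -0.07 ± 0.25 for Tapbp. Without eGFP control 3, class I members were lower in 15 of 18 cases against 44.1% of all genes, with a median of -0.29. H2-K1 then had -0.32, H2-D1 -0.30, B2m -0.18, H2-Q1 -0.35, H2-Q7 -0.23, H2-T23 -0.46, H2-M3 -0.29 and Tap2 -0.29.

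For class II, 8 of 9 members tested were on the lower side with NFAT5 (median -2.16), 6 had an unadjusted p below 0.05 and were lower, and 1, Ciita, was higher with 0 reads in both controls. H2-Ab1 had -2.16 ± 0.57, H2-Aa -3.58 ± 1.03, H2-Eb1 -2.85 ± 0.93, Cd74 -2.20 ± 0.77, H2-DMa -0.99 ± 0.42 and H2-Oa -1.14 ± 0.50, each with an adjusted p of 0.654 (edgeR). These values rested on eGFP control 3. Without it H2-Ab1 had -0.44, H2-Aa 0.35, H2-Eb1 0.57, Cd74 0.48, H2-DMa -0.20 and H2-Oa -0.22. Of class II members tested 6 of 10 were then on the higher side, against 8484 of 15766 genes. Among the 6 were Ciita and H2-DMb2, with 0 reads in eGFP control 6, and H2-DMb1, with 2 reads there. The log2 ratio of group means of the summed class II level was -2.01 over the 8 libraries and 0.02 without eGFP control 3. In CPM, NFAT5 libraries were below both controls without overlap in H2-Ab1 and H2-Oa alone, 2 of 9 members, against 8.15% of all genes. In TPM, H2-Oa overlapped, with 12.9 in NFAT5 1 and 12.6 in eGFP control 6.

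The second comparison sets CA-RIT NFAT1 against the same 2 controls, so it shares them with the first. It called 0 of 14473 genes (0%) and 0 of 28 members, and 932 genes (6.44%) had an unadjusted p below 0.05. Class I members were on the lower side in 15 of 18 cases (median -0.42), against 45.3% of all genes (median 0.10), 5 with an unadjusted p below 0.05. In 3 of the 18, H2-Q10, H2-T3 and B2m, the libraries did not overlap with the controls on the lower side in CPM, against 6.67% of all genes. On the higher side 1 of the 18, H2-T24, did not overlap in CPM, against 2058 of 14473 genes. In TPM, H2-Q10, H2-T3 and B2m overlapped with the controls. H2-K1 had -0.47 ± 0.23 (SE), H2-D1 -0.41 ± 0.22, B2m -0.35 ± 0.19, H2-Q1 -0.62 ± 0.26, H2-Q7 -0.55 ± 0.22, H2-Q10 -0.62 ± 0.21, H2-T23 -0.69 ± 0.26 and H2-M3 -0.60 ± 0.34. Tap1 had 0.09 ± 0.20, Tap2 0.01 ± 0.26 and Tapbp -0.10 ± 0.25. Without eGFP control 3, 16 of 18 class I members were on the lower side, against 44.7% of all genes, with a median of -0.17. H2-K1 then had -0.18, H2-D1 -0.18, B2m -0.18, H2-Q1 -0.13, H2-Q7 -0.19, H2-T23 -0.39, H2-M3 -0.09 and Tap2 -0.29.

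Class II members were on the lower side in 8 of 9 cases with CA-RIT NFAT1 (median -2.31), against 45.3% of all genes. Of these members 5 had an unadjusted p below 0.05, against 6.44% of all genes. H2-Ab1 had -2.54 ± 0.57, H2-Aa -3.90 ± 1.04, H2-Eb1 -3.78 ± 0.95, Cd74 -2.31 ± 0.77, H2-DMa -0.85 ± 0.42 and H2-Oa -1.71 ± 0.50, each with an adjusted p of 0.679 (edgeR). Without eGFP control 3 these were -0.82 for H2-Ab1, 0.03 for H2-Aa, -0.37 for H2-Eb1, 0.37 for Cd74, -0.06 for H2-DMa and -0.78 for H2-Oa. Of class II members 6 of 10 were then on the higher side, against 8545 of 15766 genes. Among the 6 were Ciita, H2-DMb2 and H2-Ob, with 0 reads in eGFP control 6, and H2-DMb1, with 2 reads there. The log2 ratio of the summed class II level was -2.22 over the 8 libraries and -0.18 without eGFP control 3. H2-Ab1 and H2-Oa, 2 of 9 members, lay below both controls without overlap, against 6.67% of all genes.

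Which control stands for eGFP decided the number of calls. With eGFP control 3 as the only control, so that its spread was taken from the other groups, edgeR called 3294 of 16011 genes (20.6%) and 15 of 29 members for NFAT5, and 3410 genes (21.3%) and 12 members for CA-RIT NFAT1. With NFAT5 these were 7 class I members, 7 class II members and H2-Ke6, all lower. With eGFP control 6 as the only control it called 0 genes (529 with NFAT5 and 419 with CA-RIT NFAT1 at an unadjusted p below 0.05). DESeq2 over the 8 libraries called 102 genes (0.768%) for NFAT5, H2-Aa and H2-Ab1 among them, and 60 genes (0.434%) for CA-RIT NFAT1, H2-Aa, H2-Ab1 and H2-Eb1 among them, all members lower.

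**Figure D4:**
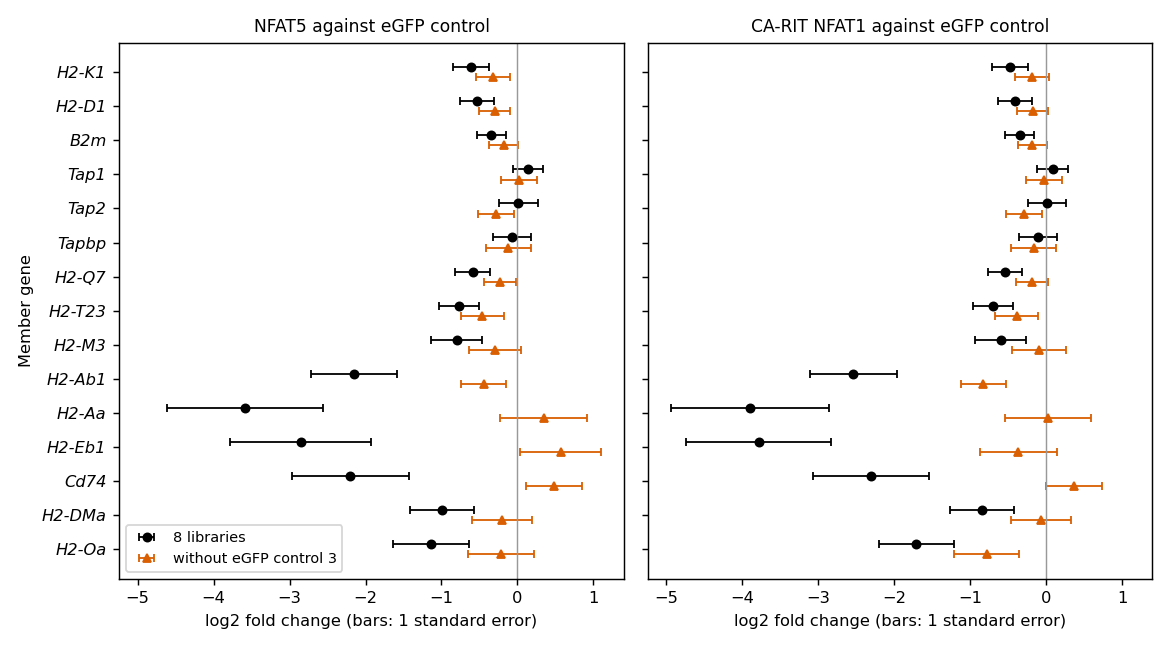
Log2 fold change of 15 members with NFAT5 (left) and CA-RIT NFAT1 (right) against eGFP, with bars of 1 standard error, from edgeR over 8 libraries (black circles) and without eGFP control 3 (orange triangles). The class II genes H2-Aa, H2-Eb1 and Cd74 lie between -3.90 and -2.20 with it and between -0.37 and 0.57 without it, while class I genes move less.

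The third comparison, CA-RIT NFAT1 against NFAT5, does not use the controls. It called 0 of 14473 genes (0%) and 0 of 28 members, with 163 genes (1.13%) at an unadjusted p below 0.05 and no member among them, and DESeq2 called 1 gene and 0 members. H2-K1 had 0.14 ± 0.21 (SE), H2-D1 0.12 ± 0.20 and B2m 0.00 ± 0.17. Of class I members 7 of 18 were on the lower side (median 0.06), against 49.5% of all genes (median 0.00). H2-Ab1 had -0.38 ± 0.51, H2-Aa -0.32 ± 0.90, H2-Eb1 -0.93 ± 0.83 and Cd74 -0.11 ± 0.69. Class II members were on the lower side in 8 of 9 cases (median -0.46), and 2 of the 9, H2-Eb1 and H2-Oa, did not overlap, against 2.78% of all genes.

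CA-RIT NFAT1 10 had 6 class II genes at the highest levels of the 10 libraries and the lowest summed class I level. Cd74 was at 2697 CPM, H2-Ab1 at 1139 CPM, H2-Aa at 701 CPM and H2-Eb1 at 656 CPM. Over the median of the 7 libraries these were 40.6-fold, 17.5-fold, 95.7-fold and 74.1-fold. The DM beta chains H2-DMb1 (170.3 CPM) and H2-DMb2 (143 CPM) were 266-fold and 192-fold higher, whereas H2-DMa, at 34.8 CPM, was 1.01-fold. H2-Oa had 1 read (0.0308 CPM), against 6.72 to 11.5 CPM in the 7. Of class I, H2-K1 was at 1359 CPM, H2-D1 at 3995 CPM and B2m at 1130 CPM. They were 0.399, 0.466 and 0.340 of the median of the 7, while H2-T24 had 0 reads and H2-T23 0.162 of it. In the same library 12 of 12 macrophage or monocyte markers reached 1 CPM (4626 CPM in sum, against 64.7 to 226 CPM in the 8) and 6 of 10 mast cell or P511 markers did (5146 CPM against 58.3 to 265 CPM). Of the dendritic cell markers 11 of 12 and of the B cell markers 7 of 7 were at 0 reads, against 3 to 7 and 3 to 6 in the 8. Of each list 2 had none in any of the 10 libraries. CA-RIT NFAT1 10 also had 0 reads for 11.65% of the genes compared above. The part of these cells in the class II level was not tested.

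eGFP control 3 also held reads of markers of other cell types. All 10 T cell markers were present, at 41866 CPM in sum, the highest of the 8 libraries. Of 12 macrophage or monocyte markers 7 reached 1 CPM, with a sum of 211 CPM that lay inside the range of the 3 CA-RIT NFAT1 libraries (83.3 to 226 CPM). Cd68 (90.0 CPM) and Chil3 (73.9 CPM) made up most of that sum. Of the 12, 4 were higher there than in each of the other 7 libraries: Chil3 and the complement genes C1qa (10.95 CPM), C1qb (10.13 CPM) and C1qc (13.5 CPM). Another 4 had 0 reads, among them Lyz2, Adgre1 and Fcgr1, which each had 0 reads in 1 other of the 8 libraries too. Of 12 dendritic cell markers 6 reached 1 CPM, with a sum of 72.2 CPM against 52.6 to 184 CPM in the 8. Ccl22 (25.6 CPM), Xcr1 (8.63 CPM), Batf3 (5.72 CPM), Flt3 (3.53 CPM) and Siglech (0.520 CPM) were the highest of the 8 there, while Itgax, at 23.7 CPM, was the lowest (33.8 to 174 CPM in the other 7). Of the 5 with 0 reads, Clec9a and Ccl17 had none in any of the 10 libraries. B cell markers reached 1 CPM in 0 of 7 cases (0.466 CPM in sum, with 6 at 0 reads, 2 of them in all 10 libraries), and the mast cell or P511 list summed to 263 CPM against 58.3 to 265 CPM. Of its 10 genes 3 were the highest of the 8 there, Cpa3 (66.1 CPM), Trap1a (24.9 CPM) and Mcpt8 (14.8 CPM). Another 3, Kit, Gata2 and Hdc, were the lowest. The part of these cells, and of the genes without reads in that library, in its class II level was not tested.

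**Figure D5:**
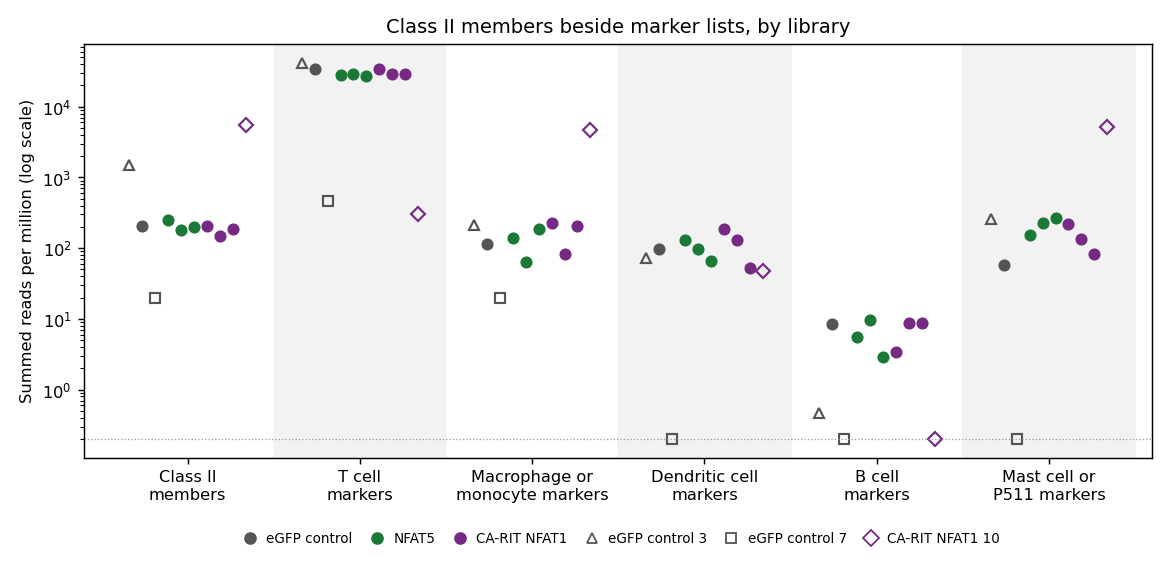
Summed CPM (log axis) of the class II members and of the marker lists of T cells, macrophages or monocytes, dendritic cells, B cells and mast cells or P511 tumour cells; each point is a library, coloured by vector, with open symbols for eGFP control 3, eGFP control 7 and CA-RIT NFAT1 10, and sums of 0 drawn on the dotted line. CA-RIT NFAT1 10 stands at 4626 and 5146 CPM for the macrophage and mast cell lists, while eGFP control 3 lies at 211 and 263 CPM, within the range of the other libraries.

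eGFP control 7 had 7865 class I reads among 51104 (15.4%, 95% Wilson interval 15.1% to 15.7%, which covers counting error only). Of these 7597 fell on H2-D1 (96.6%, 96.2% to 97.0%), against 274 CPM, or 14 reads, of H2-K1. The ratio of H2-D1 to H2-K1 in TPM was 180 there and 0.980 to 1.09 in the 8. Its class II genes had 1 read in all, on H2-Aa (19.6 CPM), where 3 reads equal 58.7 CPM, against summed class II levels of 1482 and 206 CPM in eGFP control 3 and 6.

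Genes that work with the members did not pass the test in any comparison. Of 28 genes of the class I pathway (interferon signalling, immunoproteasome, loading), 28 were tested. With NFAT5 15 were on the higher and 13 on the lower side (median 0.07), and with CA-RIT NFAT1 14 and 14 (median 0.02), both beside a median of all genes of 0.08 and 0.10. Nlrc5, the class I counterpart of Ciita, had 6.41 and 62.6 CPM with eGFP, 133, 40.2 and 23.9 CPM with NFAT5 and 179, 89 and 47.4 CPM with CA-RIT NFAT1, with log2 fold changes of 0.86 ± 1.00 (SE) for NFAT5 and 1.52 ± 1.02 for CA-RIT NFAT1 against eGFP. Irf1 had -0.31 ± 0.27 and -0.48 ± 0.27. Among the 8 libraries Nlrc5 was lowest in eGFP control 3, the library with the highest H2-K1. In CA-RIT NFAT1 10, by contrast, both were low, Nlrc5 at 0.831 CPM and H2-K1 at 1359 CPM. Among the smallest unadjusted p-values were those of Irf8 with NFAT5 (337 and 235 CPM with eGFP, 228, 92.7 and 118 CPM with NFAT5 and 295, 206 and 233 CPM with CA-RIT NFAT1) and of Nfkb1 with CA-RIT NFAT1 (41.2 and 40.5 CPM with eGFP, 52.7, 53.2 and 51.8 CPM with NFAT5 and 63.4, 59.1 and 69.4 CPM with CA-RIT NFAT1). The immunoproteasome gene Psme2 had 1017 and 455 CPM with eGFP, 416.5, 496 and 557 CPM with NFAT5 and 407, 467 and 533 CPM with CA-RIT NFAT1, so that eGFP control 3 alone stood above the rest.

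Of 16 genes of the class II pathway 15 were tested and 0 passed, with 8 higher and 7 lower in both comparisons with eGFP (medians 0.03 and 0.02). Rfx5, a factor of the class II promoter complex, had 0.35 ± 0.68 with NFAT5 and 0.23 ± 0.67 with CA-RIT NFAT1. Il10, a cytokine known to lower class II in myeloid cells, had the smallest unadjusted p with NFAT5, at 37.6 and 29.8 CPM with eGFP, 14.9, 4.96 and 8.48 CPM with NFAT5 and 23.5, 12.5 and 8.48 CPM with CA-RIT NFAT1, with every NFAT5 and CA-RIT NFAT1 library below both controls. Of 12 class I-like genes outside the H2 region 6 were tested and 0 passed. Of the 6, 5 were on the higher side with NFAT5 (median 0.87) and 4 with CA-RIT NFAT1 (median 0.56), against 7796 and 7896 of 14473 genes. Cd1d1, which presents lipids, was the 1 on the lower side with NFAT5. It had 49.6 and 29.8 CPM with eGFP, 23.4, 20.6 and 26.6 CPM with NFAT5 and 28.8, 24.1 and 27.6 CPM with CA-RIT NFAT1. Ulbp1 had 2.05 and 11.3 CPM with eGFP, 19.5, 22.1 and 24.6 CPM with NFAT5 and 10.4, 20.1 and 15.3 CPM with CA-RIT NFAT1. For CA-RIT NFAT1 against NFAT5 the smallest unadjusted p-values belonged to Socs1 (-0.73 ± 0.32), Irf8 (0.73 ± 0.34) and Fcgrt (-0.67 ± 0.37), again with adjusted p = 1 (edgeR).

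H2-Ke6, at 63 and 33.8 CPM with eGFP, 26.6, 29 and 22.1 CPM with NFAT5 and 32.3, 25.1 and 25.3 CPM with CA-RIT NFAT1, was highest in eGFP control 3.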

How the data were processed

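RNA of sorted CD8 T cells was sequenced in 10 libraries of 3 groups. The authors used Salmon 0.14.1 and name the builds mm10 and GRCm38.p6, per the submitters' processing notes; the sources used here do not give trimming or options. The deposited tables hold, per transcript and per the file headers, an estimated count of reads, TPM, length and effective length. The deposited TPM values were summed per gene only to compare levels between genes. Transcripts were matched to GENCODE M21 (139966 of 140919; the release was inferred), and estimated counts were summed per gene, rounded for tests, and scaled to CPM. The counting is not stated to use strand, so overlapping and antisense genes cannot be told apart.

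Main tests used edgeR 4.0.16 (quasi-likelihood, TMM, default filter, Benjamini-Hochberg at 0.05, 1 dispersion trend for 3 groups) in R 4.3.3 over 8 libraries, adjusted over all genes, and were tested on simulated data. The simulated counts spread less between libraries than the real ones, so they do not show the power of the tests here. Alternatives used DESeq2 1.42.0, limma 3.58.1 voom, other scalings and filters, protein-coding genes, all 10 libraries, and each library left out. The 953 unmatched transcripts held up to 0.292% of reads.

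The members, the lists of pathway and marker genes and the tests were chosen with earlier results of these data known. Members were named with values where class I genes had a mean of 5 CPM over the 8 libraries or class II genes 1 CPM in any, and of the pathway lists Nlrc5, Irf1, Rfx5 and the 3 smallest p-values per comparison; some listed genes are not reported here. Floors are 3 reads. Promoters came from RefSeq.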

Additional observations from a re-analysis of the deposited data

Results flagged for a closer look

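In the CA-RIT NFAT1 group, the only one with 4 libraries, 28 values were examined for a library far from the others, by the gap of the highest or lowest library to its neighbour as a share of the whole range, against the 95% limit of Dixon's test. Chance passes about 1 in 20 such groups if the values are independent, and here 10 passed. The 28 values are not independent, since they hold a sum beside the genes in it. CA-RIT NFAT1 10 had also been set apart beforehand, so the count of 10 is no test against chance. CA-RIT NFAT1 10 was the library apart for the summed class II level (0.989), Cd74 (0.986), H2-Aa (0.995), H2-Ab1 (0.980), H2-Eb1 (0.994), H2-DMb1 (0.994) and H2-DMb2 (0.994), each time above, and for H2-Oa (0.945), where it lay below. CA-RIT NFAT1 9 was apart for Ciita (1.000), being the only one of the 4 with reads, and for H2-M2 (0.976). With 0 reads in the rest of the group, the value for Ciita is 1.000 at any level in CA-RIT NFAT1 9. H2-M2 had 36 reads in CA-RIT NFAT1 9, 1 read in CA-RIT NFAT1 10 and 0 in CA-RIT NFAT1 2 and 4.

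H2-Ea-ps, which encodes the E alpha chain in some mouse strains and is annotated as a pseudogene for C57BL/6, is no member. It was at 475 CPM in CA-RIT NFAT1 10 and 130.8 CPM in eGFP control 3, against 0.518 to 3.51 CPM in the other 7 libraries and 0 reads in eGFP control 7.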

How the results depend on the processing

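Over the 17 genes with printed fold changes against eGFP and 7 against NFAT5, 738 alternatives were computed, of which 687 kept the sign of the 8-library fit, 51 had the other sign (34 by over 1 SE) and 26 passed an adjusted p of 0.05. All genes past that threshold, 0 in each comparison, became 102, 60 and 1 with DESeq2, members 2, 3 and 0; leaving out 1 library gave 0 to 3294 genes and 0 to 15 members for NFAT5, and 0 to 3410 genes and 0 to 12 members for CA-RIT NFAT1 against eGFP. The upper ends are the fits without eGFP control 6. With RLE and upper-quartile scaling 15 and 16 of 18 class I members and 8 of 9 class II members were on the lower side in both comparisons with eGFP. The remaining alternatives called 0 genes (unadjusted p below 0.05 in the 8 libraries: 1051, 932 and 163).

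With all 10 libraries the log2 ratio of summed class I means became -1.76, -1.90 and -0.15 (from -0.36, -0.26 and 0.10), and of class II 1.42 for CA-RIT NFAT1 against eGFP and 2.86 against NFAT5 (from -2.22 and -0.21). Leaving out 1 library, the class II ratio ran from -2.82 to 0.02 for NFAT5 and from -3.03 to -0.18 for CA-RIT NFAT1 against eGFP, the upper ends being without eGFP control 3.

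Signs turned by over 1 SE as follows. With 1 library left out, the lowest and highest values were -0.29 and 0.43 for Tap2, -3.08 and 0.48 for Cd74, -4.53 and 0.35 for H2-Aa and -3.78 and 0.57 for H2-Eb1 with NFAT5, and -0.29 and 0.43 for Tap2, -3.18 and 0.37 for Cd74 and -4.84 and 0.03 for H2-Aa with CA-RIT NFAT1, between the fits without eGFP control 3 and without eGFP control 6. With all 10 libraries NFAT5 had B2m 0.13 and Tapbp 0.33, CA-RIT NFAT1 against eGFP had Cd74 1.14, H2-Aa 0.49, H2-Ab1 0.16 and H2-Eb1 0.82, and against NFAT5 H2-K1 -0.12, H2-D1 -0.12, Cd74 3.08, H2-Ab1 2.07, H2-Aa 4.09 and H2-Eb1 3.57. With CA-RIT NFAT1 10 added alone, CA-RIT NFAT1 against eGFP had Tap1 -0.20, Tap2 -0.27, Cd74 0.85, H2-Aa 0.47 and H2-Eb1 0.68, and against NFAT5 H2-K1 -0.13, H2-D1 -0.12, Cd74 3.04, H2-Ab1 2.04, H2-Aa 4.05 and H2-Eb1 3.53. With eGFP control 7 added alone, NFAT5 had B2m 0.12 and Tapbp 0.24, and CA-RIT NFAT1 had B2m 0.13 and Tapbp 0.21. The cause was not tested. No paired analysis was possible because each library number occurs in 1 group only. In eGFP control 7 3 reads equal 58.7 CPM, above the levels in eGFP control 6 of each class II gene but H2-Ab1 (90.3 CPM).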

Other observations

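The H2 genes that are not protein coding, 11 in the annotation, largely showed the levels of their class. Apart from H2-Ea-ps, H2-Q5 (267 and 185 CPM in eGFP control 3 and 6), H2-K2 (184.6 and 149 CPM), H2-Bl (174.7 and 137 CPM), H2-T-ps (70.1 and 53.4 CPM) and H2-T10 (34.1 and 32.3 CPM) had reads in all 8 libraries, H2-Pa had 3 reads in 1 library and the other 4 had 0 in all 10. In CA-RIT NFAT1 10 they were at 83.6, 39.6, 33, 14.1 and 1.66 CPM in the same order.

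Cd74 is read from 3 coding transcripts, 1 shorter and 2 longer ones, which have the same coding length, 192 bases or 64 codons more than the shorter. Of the reads on the 3, the longer pair took 21.75% in eGFP control 3 (95% Wilson interval 21.2% to 22.3%) and 6.18% in eGFP control 6 (4.98% to 7.63%). The share was 17.7%, 8.79% and 11.3% in NFAT5 1, 5 and 8 and 18.8%, 11.2% and 10.9% in CA-RIT NFAT1 2, 4 and 9, so that the groups overlapped. It was 18.0% in CA-RIT NFAT1 10 (17.7% to 18.2%). The H2-DMb1 to H2-DMa ratio in TPM was 4.52 for CA-RIT NFAT1 10, 0.0402 for eGFP control 3, and 0.00290 to 0.0645 in the other 7.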
